A study of Mus musculus with 4 samples.

Results

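Linker histone and histone variant genes were followed in splenic CD8 T cells of mice that received a dioxin. The set holds 5 genes of the mouse genome: the linker histones H1f0 and H1f2, the H2A variant H2az1, and H3f3a and H3f3b, which both encode the variant H3.3. A probe set was taken for a gene where the platform annotation names that gene alone, and where a gene has several, its main probe set is the brightest by the mean over the 4 arrays. By this rule 2 of the 5 genes were measured, out of 12393 genes on the array, with 3 probe sets for H1f2 and 2 for H2az1. H3f3a and H3f3b were named only together, on 5 probe sets that also list 4 other genes, so their signal cannot be given to either gene. No listed probe set names H1f0, which was not analysed here.

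The study compared female C57BL/6 mice injected intraperitoneally with TCDD at 10 µg/kg against mice injected with the solvent DMSO, all aged 8 to 12 weeks and taken 24 h later. TCDD is a persistent dioxin that activates the aryl hydrocarbon receptor (AHR). For each group the spleens of 4 mice were pooled and CD8 T cells were sorted to a purity above 99%. There were 2 arrays a group, numbered 1 and 2 in their titles, and no label says whether a number marks a separate pool, a shared day or a repeat of 1 RNA, so the spread between arrays may be technical.

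Histones package DNA into nucleosomes. Linker histones of the H1 family bind where DNA enters and leaves the nucleosome and help chromatin to fold; H1f2 encodes the subtype H1.2, and H1f0 the subtype H1.0, which is known from resting and differentiated cells. Most core histones are made in S phase from clustered genes whose mRNA ends in a stem loop in place of a poly(A) tail, whereas H2A.Z and H3.3 come from polyadenylated mRNA through the whole cell cycle. H2A.Z is placed beside active promoters by the SRCAP and p400 complexes, and H3.3 is placed by the chaperones HIRA and DAXX with ATRX. Resting T cells rarely divide, and such replacement histones can be exchanged into chromatin without replication.

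The upstream sequences of the 2 measured genes are shown because they differ, the H1f2 sequence carrying AAACACA and TATATA, which the H2az1 sequence lacks. They are the 250 bases before the annotated start, from RefSeq on GRCm38.p6, on the plus strand at chr13:23738557-23738806 for H1f2 and at chr3:137864237-137864486 for H2az1. Capitals mark AAACACA (the H1 box of linker histone genes), CCAAT and TATATA in H1f2, and CCAAT and GCGTG (the core of the AHR response element) in H2az1, each on either strand.
H1f2: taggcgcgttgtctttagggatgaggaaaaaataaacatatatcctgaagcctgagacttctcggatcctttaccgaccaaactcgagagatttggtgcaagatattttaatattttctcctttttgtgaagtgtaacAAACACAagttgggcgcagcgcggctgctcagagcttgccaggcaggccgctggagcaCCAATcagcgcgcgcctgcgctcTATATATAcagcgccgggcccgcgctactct
H2az1: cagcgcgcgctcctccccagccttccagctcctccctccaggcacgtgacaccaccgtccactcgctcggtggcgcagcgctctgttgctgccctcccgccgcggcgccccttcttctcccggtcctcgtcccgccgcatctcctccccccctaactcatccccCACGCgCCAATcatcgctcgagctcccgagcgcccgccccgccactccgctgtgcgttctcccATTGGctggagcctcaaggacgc

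In H1f2 the AAACACA match began 112 bases before the start and the CCAAT match 54 bases before it, and 2 overlapping TATATA matches began 31 and 29 bases before it. Of 32851 upstream sequences of this length, 6.25% held AAACACA, 33.8% CCAAT and 5.25% TATATA on either strand. Among 10 linker histone genes in the table, AAACACA and TATATA stood in the same 5, H1f2, H1f3, H1f4, H1f5 and H1f6. Of 52 H2ac, H2bc, H3c and H4c genes, 4 held AAACACA, 10 held TATATA and 42 held CCAAT. H2az1 held CCAAT 80 and 23 bases before its start and no TATATA, and its GC content was 71.2% against 50.4% for H1f2 and a median of 52.4% for all. GCGTG, found in 28.2% of all upstream sequences, stood once each in H1f0, H2az1, H3f3a and H3f3b and was not among these letters in H1f2. The AP-1 motif TGANTCA (6.75% of all) and the cyclic AMP element TGACGTCA (1.55%) matched in none of the 5. A match describes the letters only and shows no binding.

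H1f2, the linker histone gene, measured below each DMSO array in each TCDD array on 2 of its 3 probe sets, an order that 12.0% of all probe sets had. The genes were chosen by their TCDD against DMSO values, within each number, so those values are a description and carry no test. Values are RMA expression on a log2 scale, where 1 unit is a 2-fold change in signal. On the main probe set, 1416101_a_at, H1f2 read 8.50 in TCDD array 1 and 7.59 in TCDD array 2, against 10.62 in DMSO array 1 and 9.31 in DMSO array 2. The groups did not overlap, with a gap from 8.50 to 9.31 between them, and the arrays numbered 2 were lower than those numbered 1 in each treatment. Group means were 8.045 ± 0.644 (SD, n = 2) in the TCDD group and 9.965 ± 0.926 (n = 2) in the DMSO group, a TCDD minus DMSO difference of −1.92, or a signal 3.78-fold lower. Within number 1 the difference was −2.12 and within number 2 it was −1.72. The step between numbers was also large, at −0.91 from number 1 to number 2 after TCDD and −1.31 after DMSO. With an array left out in turn the difference ran from −2.575 without DMSO replicate 2 to −1.265 without DMSO replicate 1.

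The second H1f2 probe set repeated this order of the arrays. On 1436994_a_at the gene read 8.85 and 7.90 with TCDD and 10.07 and 9.11 with DMSO. Here the treatment difference was nearly equal within the numbers, at −1.22 and −1.21, and the step from number 1 to number 2 was −0.95 after TCDD and −0.96 after DMSO. The arrays therefore stood apart by treatment and by number to a similar degree. With arrays left out its difference of −1.215 ran from −1.695 to −0.735.

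The third H1f2 probe set, 1438204_at, was nearly flat. It read 6.39 and 6.50 with TCDD and 6.61 and 6.45 with DMSO, with overlapping groups and a difference of −0.085. Its whole range over the 4 arrays was 0.22, against 3.03 and 2.17 for the other probe sets of the gene. It lay between the 59.2nd and 63.3rd percentile of all probe sets on an array, near the median level of 6.01, whereas the main probe set lay between the 81.0th and 98.1st. The RMA values alone do not tell whether a signal at this level is weak or absent. The annotation gives a transcript accession for the first and second probe sets and none for this one.

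**Figure D1:**
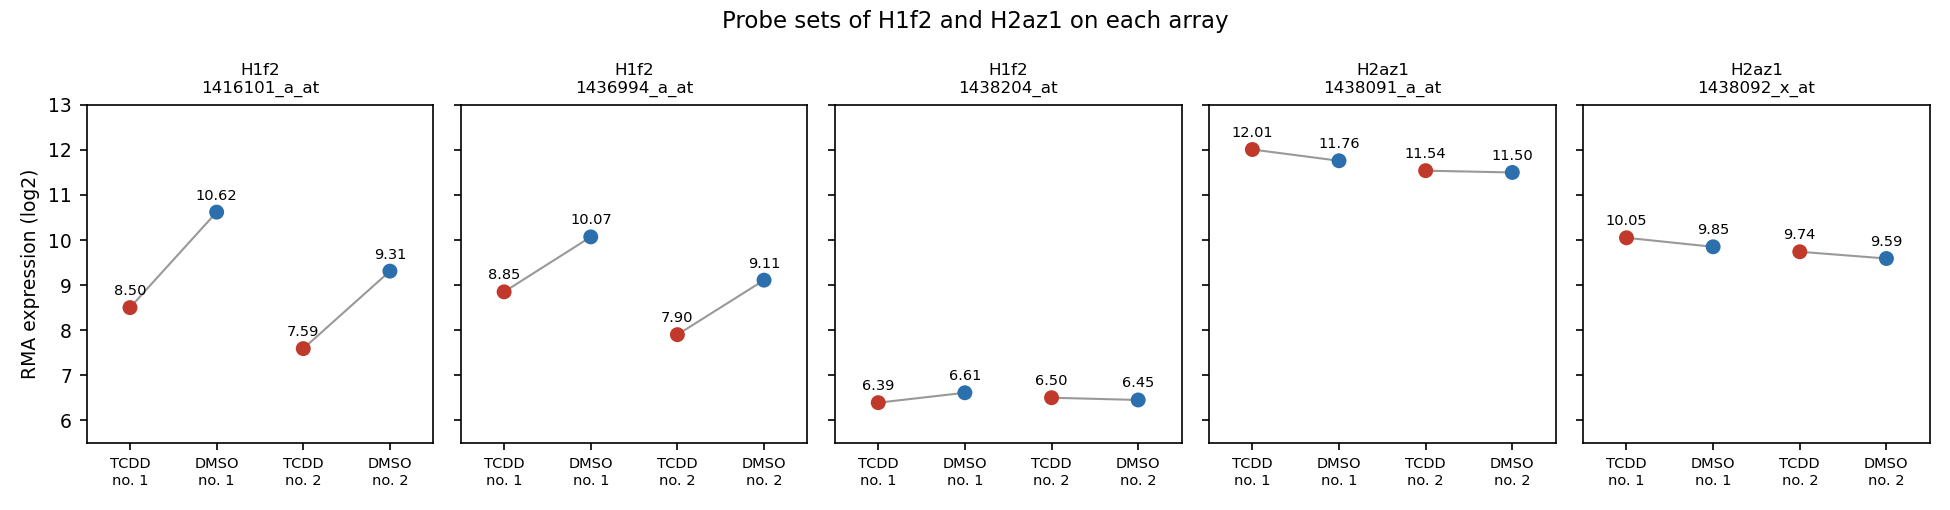
RMA expression (log2, vertical axis) of the 3 H1f2 and 2 H2az1 probe sets on each of the 4 arrays (horizontal axis), TCDD in red and DMSO in blue, with lines joining arrays that share a title number. H1f2 is lower after TCDD on 1416101_a_at and 1436994_a_at within both numbers and flat near 6.5 on 1438204_at, while H2az1 differs by no more than 0.25 within a number.

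Against the whole array, the size of the H1f2 difference was rare and its separation of groups was not. Of 22626 probe sets, 12.0% had each TCDD array below each DMSO array and 13.5% had each above. At least 1 log2 unit lower within both numbers held for 6 probe sets, or 0.0265%, and 2 of these 6 belonged to H1f2, while 1 probe set (0.00442%) was as far higher within both. The others belonged to Fos, Fosb and Jun, subunits of the AP-1 transcription factor, and to Aldh18a1, an enzyme of proline synthesis. These genes were named after their values were seen, and the choice of H1f2 used this contrast, so the counts place the gene and support nothing further. No probe set passed limma after Benjamini-Hochberg adjustment (0 of 22626, percent called 0, lowest adjusted p = 0.9973), and 439 had an unadjusted p under 0.05. A limma count of 0 for any gene list below follows from this and says nothing particular about that list.

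Fosb, Jun and Zfp36 had the profiles closest to H1f2, measured as the root mean square distance between main probe sets over the 4 arrays after each was centred on its own mean. Fosb was nearest at 0.358 log2 units, reading 7.46 and 6.12 with TCDD and 8.88 and 7.30 with DMSO. Jun followed at 0.385, with 10.52 and 9.99 against 11.97 and 11.04. Zfp36, which encodes an mRNA decay factor, was at 0.387, with 9.19 and 8.59 against 10.61 and 9.58. All 3 were lower after TCDD within both numbers and lower in the arrays numbered 2 in each treatment, as H1f2 was. With 4 arrays this likeness rests on few points, and it uses the contrast that chose the gene.

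**Figure D2:**
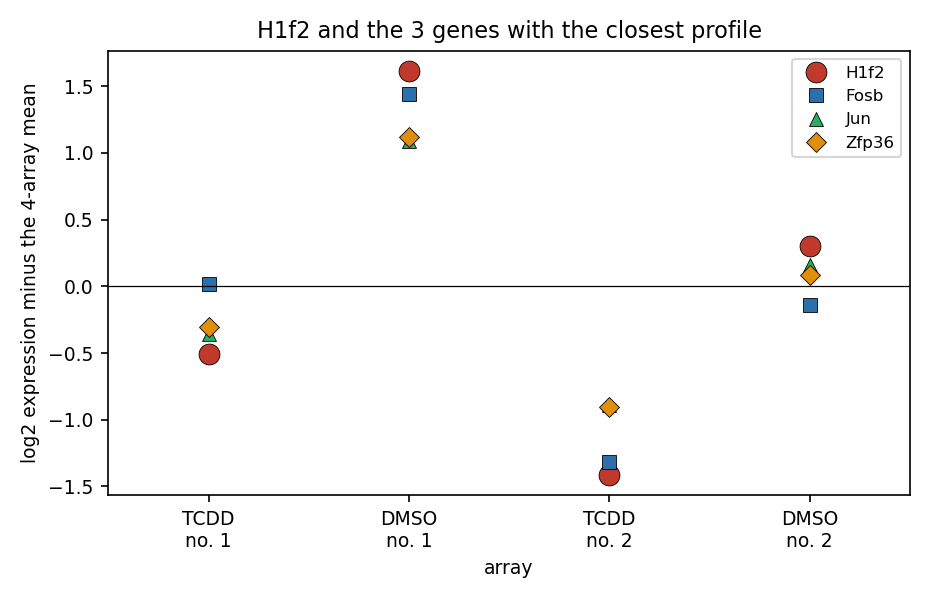
Log2 expression minus each gene's own mean over the 4 arrays (vertical axis) on each array (horizontal axis) for H1f2 and its 3 closest genes, Fosb, Jun and Zfp36. All 4 are highest in DMSO array 1 and lowest in TCDD array 2, and H1f2 has the widest range at 3.03.

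Genes known to be induced within an hour of stimulation or of tissue dissociation were, like H1f2, highest on average in DMSO array 1 and lowest in TCDD array 2. Of 33 measured genes of this list, 19 were lower after TCDD within both numbers and 5 higher, against 20.2% and 22.6% of all genes. Both TCDD arrays were below both DMSO arrays for 10 of the 33 and above for 1, where the shares of all genes were 12.0% and 12.9%. Their median difference was −0.37, and it ran from −0.855 without TCDD replicate 1 to 0.04 without TCDD replicate 2, with −0.785 without DMSO replicate 2 and −0.135 without DMSO replicate 1. Their mean level was 9.45 and 8.48 in TCDD arrays 1 and 2 against 9.88 and 9.02 in the DMSO arrays. The limma test called 0 of the 33 in either direction, and 6 had an unadjusted p under 0.05, against 261 of all 12393 genes. The largest differences belonged to the inducible HSP70 genes Hspa1a (−1.89) and Hspa1b (−1.79), which lay mostly in number 2, at −3.51 and −3.21 against −0.27 and −0.37 within number 1. The part of handling or of this early response in the H1f2 difference was not tested.

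Markers of the labelled cell type were present, with 11 of 12 CD8 T cell genes measured and all 11 above the median level. Both TCDD arrays were below both DMSO arrays for 4 of the 11 and above for 0, against 12.0% and 12.9% of all genes, with a median difference of −0.175 and mean levels of 9.01 and 9.24 against 9.43 and 9.37. The coreceptor gene Cd8a differed by −0.73 and the surface glycoprotein gene Thy1 by −0.70. Limma called 0 of these 11, with 2 at an unadjusted p under 0.05, against 261 of all 12393 genes. In 9 of the 10 lists of other cell types the mean level differed between arrays by under 0.7, and for neutrophil markers it ran from 5.95 in DMSO array 1 to 7.11 in DMSO array 2, where S100a8 was high. Among these, B cell genes averaged 7.52 and 7.37 with TCDD and 7.54 and 6.86 with DMSO, with 6 of 10 above the median level. These list means hide wider spreads of single genes. The class II gene H2-Eb1 read 10.17 and 9.39 with TCDD and 9.94 and 8.25 with DMSO, and H2-Aa ranged over 1.79. The B cell gene Cd22 ranged over only 0.28. The plasma cell gene Jchain ran from 5.48 in DMSO array 1 to 8.04 in DMSO array 2. Dendritic cell genes were higher after TCDD within both numbers for 5 of 6 measured and lower for 1, against 22.6% and 20.2% of all genes, and both TCDD arrays were above both DMSO arrays for 3 and below for 1. Their median difference was 0.227, their mean levels were 6.44 and 6.17 with TCDD and 6.28 and 5.77 with DMSO, and limma called 0. Among them Irf8, a transcription factor that B cells also express, read 8.31 and 7.02 against 8.02 and 5.76, with overlapping groups. The part of cell makeup in the H1f2 difference was not tested, and in pooled cells fewer cells of a type and less RNA per cell cannot be told apart.

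H2az1, which encodes the main H2A.Z protein, was bright and differed little between treatments on the probe sets that name it alone. On the main probe set, 1438091_a_at, it read 12.01 and 11.54 with TCDD and 11.76 and 11.50 with DMSO. The groups overlapped, and the arrays numbered 2 were the lower ones in each treatment. Group means were 11.775 ± 0.332 (SD, n = 2) and 11.63 ± 0.184 (n = 2), a difference of 0.145 that was smaller than the spread of the TCDD arrays. Within the numbers it was 0.25 and 0.04, and it turned to −0.09 without TCDD replicate 1. The other probe set, 1438092_x_at, read 10.05 and 9.74 against 9.85 and 9.59, a difference of 0.175 with overlapping groups. These probe sets lay above the 95.5th percentile on every array.

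The 2 probe sets that list H2az1 together with the predicted gene Gm8203 differed from each other in direction. On 1416415_a_at the arrays read 9.84 and 9.73 with TCDD and 9.88 and 10.53 with DMSO. The groups did not overlap, with TCDD lower, an order that 12.0% of all probe sets had. The difference of −0.42 lay in DMSO array 2, being −0.04 within number 1 and −0.80 within number 2. On 1456032_x_at they read 9.79 and 9.53 against 9.35 and 9.59, a difference of 0.19 with overlapping groups. Over all 4 probe sets that list H2az1, 3 read slightly higher on average after TCDD and 1 lower.

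The 5 probe sets that list H3f3a, H3f3b and 4 other genes together gave TCDD minus DMSO differences from −0.65 to 0.045. The brightest, 1434127_a_at, read 12.32 in both TCDD arrays against 12.17 and 12.38 after DMSO and was nearly flat. On 1455725_a_at the arrays read 11.75 and 10.93 with TCDD and 12.01 and 11.31 with DMSO, and on 1420376_a_at 10.55 and 9.12 against 10.82 and 9.11. These last were set apart by number, with steps from number 1 to number 2 of −0.82 and −0.70 on the first and −1.43 and −1.71 on the second. On 1423262_a_at the arrays read 8.71 and 8.36 with TCDD and 8.79 and 9.58 with DMSO, a difference of −0.65 that came mainly from DMSO array 2. On 1423263_at they read 7.86 and 7.77 against 8.12 and 8.39, a difference of −0.44 that was −0.26 within number 1 and −0.62 within number 2. Groups did not overlap on 2 of the 5, both lower after TCDD, where 12.0% of all probe sets were so placed, and overlapped on 3.

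**Figure D3:**
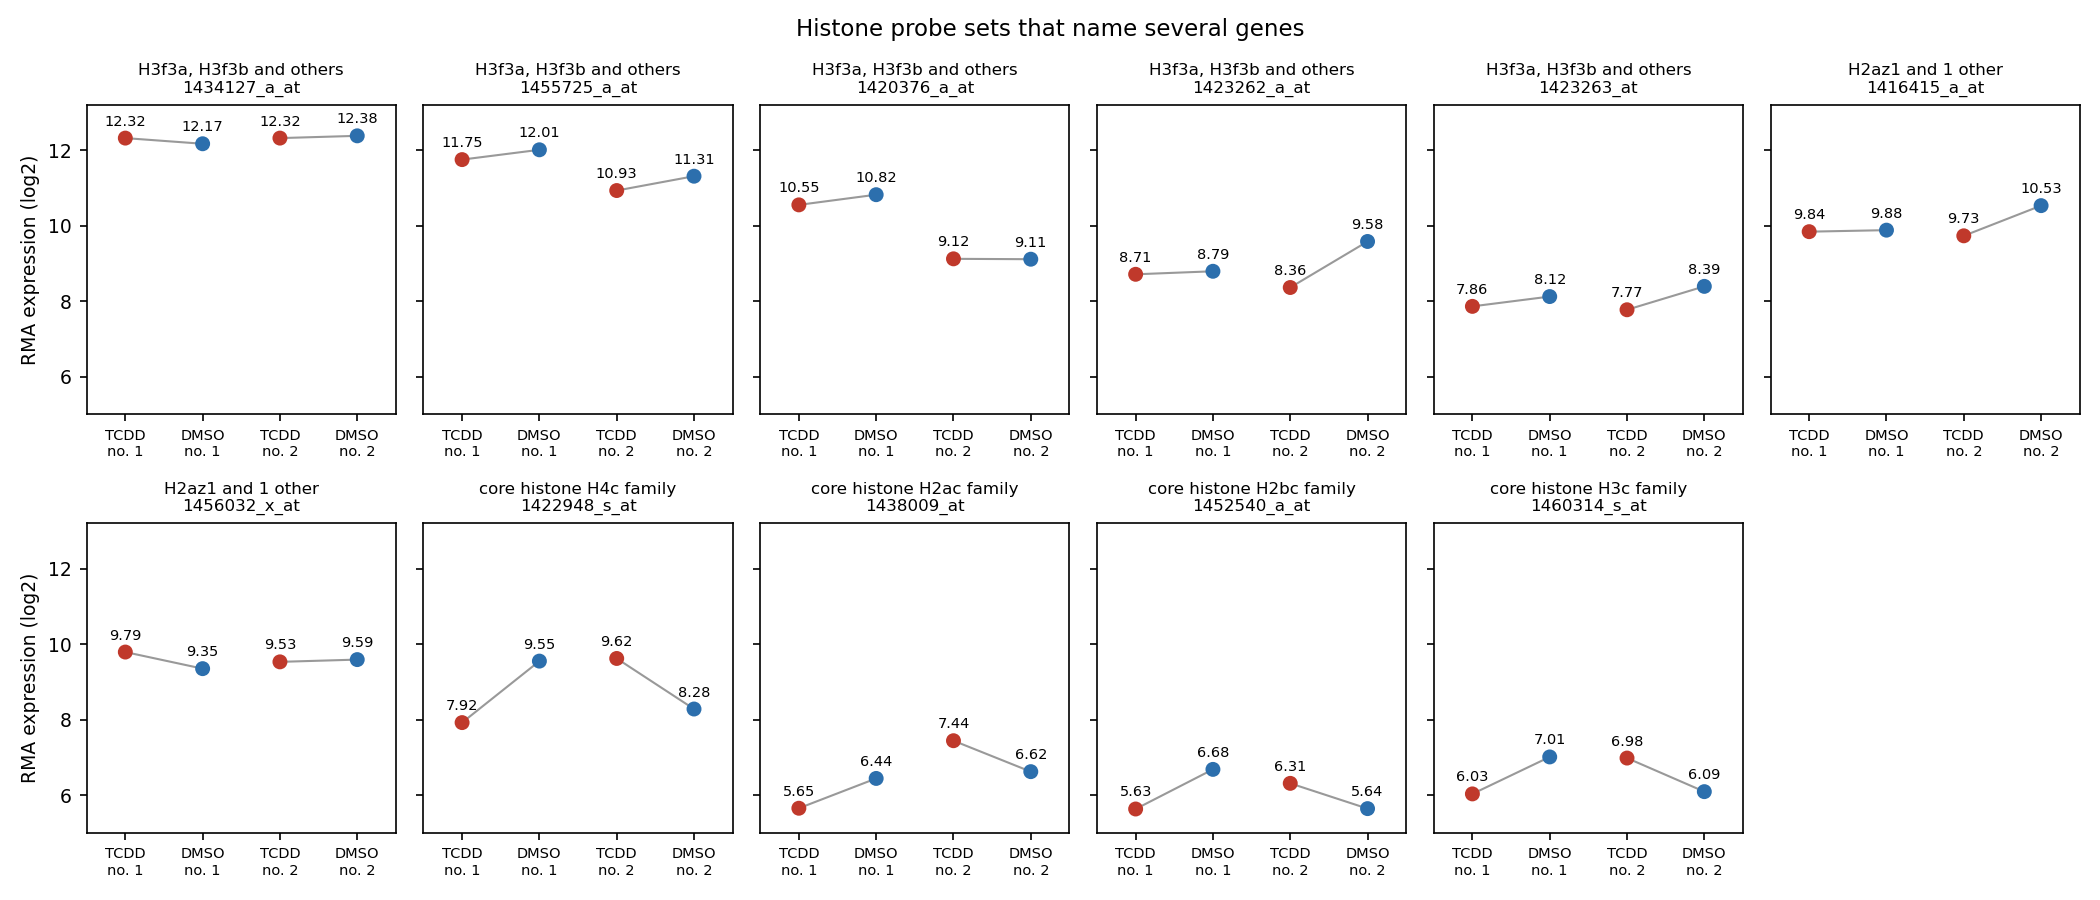
RMA expression (log2, vertical axis) on the 4 arrays (horizontal axis, TCDD red, DMSO blue, lines joining a title number) for probe sets that name several genes. Shown are 5 that list H3f3a and H3f3b with 4 other genes, 2 that list H2az1 with 1 other, and 4 of replication-dependent core histones. Among those that list H3f3a and H3f3b, TCDD array 2 is lowest on 1455725_a_at, 1423262_a_at and 1423263_at. DMSO array 1 is lowest on 1434127_a_at, and DMSO array 2 on 1420376_a_at, at 9.11 against 9.12 in TCDD array 2. The 4 core histone probe sets are lower with TCDD in number 1 and higher with TCDD in number 2.

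The other linker histones differed by at most 0.15 between treatments, with H1f6 and H1f10 just above the median level of 6.01 and H1f4 and H1f8 far below it. Of 9 listed genes 4 were measured, H1f4, H1f6, H1f8 and H1f10, with a median difference of −0.073 and a range from −0.15 to 0.04. That median was −0.01 without TCDD replicate 1, −0.022 without DMSO replicate 1 and −0.132 without TCDD replicate 2. H1f10, which encodes the divergent subtype H1.10, read 6.24 and 6.31 with TCDD and 6.42 and 6.43 with DMSO. The testis gene H1f6 read 6.30 and 6.54 against 6.43 and 6.33. H1f4 and H1f8 lay between 3.81 and 4.36 on every array, so these data give no comparison of H1f2 with a second linker histone at a similar signal. None of the 4 passed limma (adjusted p = 0.9973 for each), as no probe set on the array did.

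The 6 other core histone variants measured differed by −0.26 to 0.345 between treatments. Of 13 listed genes 6 were measured, with a median difference of −0.12 against 0.01 for all genes, and the median was 0.018 without DMSO replicate 2 and 0.022 without probe sets ending in _x_at, _s_at or _a_at. Both TCDD arrays were below both DMSO arrays for 1 and above for 0, against 12.0% and 12.9% of all genes, and limma called 0. Cenpa, the H3 variant of centromeres, differed by 0.345 and read 7.85 and 6.76 with TCDD and 7.28 and 6.64 with DMSO. H2az2, the second H2A.Z gene, differed by −0.26, all of it from DMSO array 2 at 8.62 against 8.08 to 8.09 elsewhere. H2ax, the variant phosphorylated at DNA breaks, read 7.93 and 7.68 against 8.13 and 7.90, lower within both numbers with overlapping groups. Macroh2a1, a variant linked to repressed chromatin, read 10.03 and 10.08 against 10.24 and 10.16, the 1 gene of this list whose groups did not overlap. H2ax and Macroh2a1 were named here after their values were seen.

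Replication-dependent core histone genes were mostly dim on the array and few could be told apart. Of 59 such genes, 5 had a probe set of their own, and 1 of these, H2ac19, lay above the median level, at 7.12 and 7.01 with TCDD and 7.43 and 7.09 with DMSO. Another 14 probe sets name several core histone genes, of which 7 were above the median level. Over these 14 the median difference was −0.068, and limma called 0.

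Of the 14 probe sets for several core histone genes, 9 were lower after TCDD within number 1 and higher within number 2, an order that 32.1% of all probe sets had. In 4 of the 9 both differences passed 0.5 log2 units, with 1 from each core family. The H4c probe set 1422948_s_at read 7.92 in TCDD array 1 and 9.55 in DMSO array 1, but 9.62 in TCDD array 2 and 8.28 in DMSO array 2. The H3c probe set 1460314_s_at read 6.03 and 7.01 in number 1 and 6.98 and 6.09 in number 2, in the same order. The H2bc probe set 1452540_a_at read 5.63 and 6.68, then 6.31 and 5.64. The H2ac probe set 1438009_at read 5.65 and 6.44, then 7.44 and 6.62. Over the array 12 probe sets, 0.0530% of 22626, passed those limits, which were set after the values were seen, and 4 of the 12 were these. The other 5 of the 9 differed by −0.30 to 0.16 within a number. Averages over the treatments hide this, since their differences ran from −0.19 to 0.015. H1f2 did not follow it on 1416101_a_at and 1436994_a_at, where it was lower after TCDD within both numbers. The nearly flat H1f2 probe set 1438204_at had that order at a small size, −0.22 within number 1 and 0.05 within number 2.

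**Figure D4:**
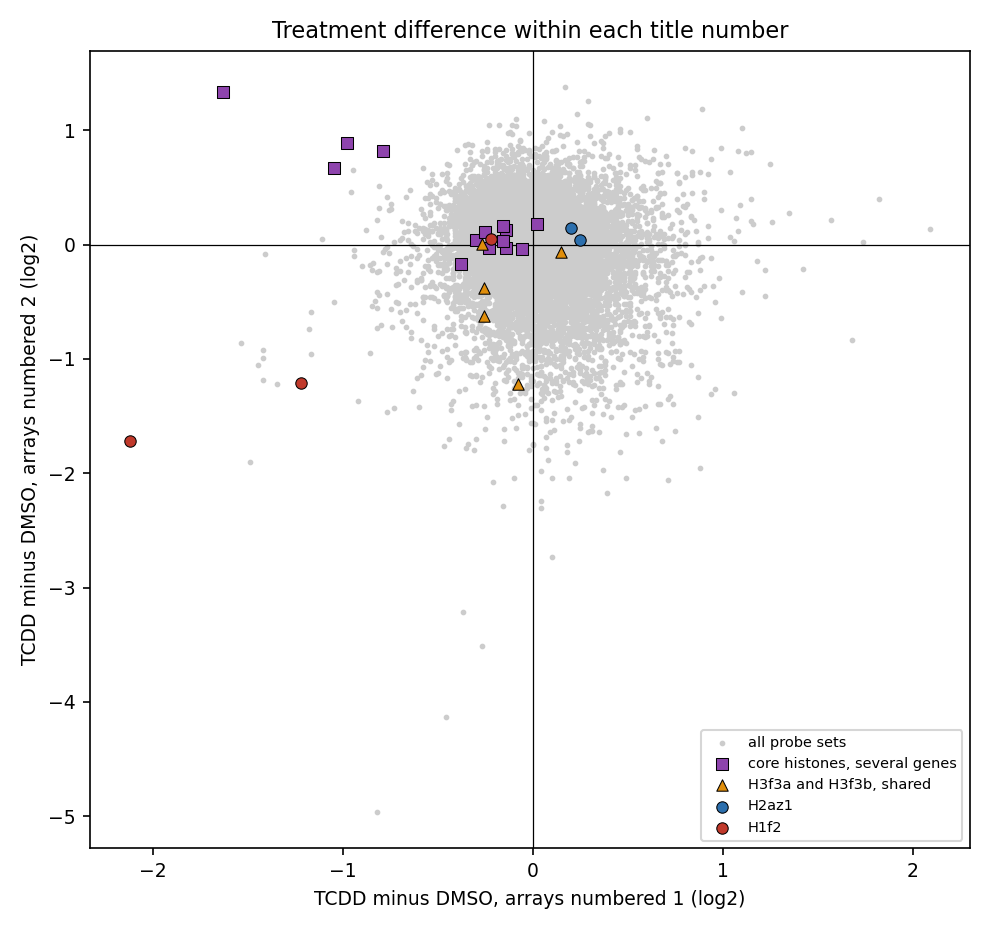
TCDD minus DMSO difference (log2) between the arrays numbered 1 (horizontal axis) and those numbered 2 (vertical axis) for every probe set in grey, with histone probe sets coloured. Of the H1f2 probe sets 2 lie at the lower left (−2.12 and −1.72 for the main one), H2az1 lies near 0, and 4 core histone probe sets lie at the upper left.

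S phase and mitosis genes, read because core histone mRNA accumulates in S phase, differed little on average. Of 33 measured genes, 2 had both TCDD arrays above and 5 had both below the DMSO arrays, against 12.9% and 12.0% of all genes. The median difference was −0.045, and limma called 0, with 1 at an unadjusted p under 0.05, against 261 of all 12393 genes. That median was 0.04 without DMSO replicate 1 and −0.12 without DMSO replicate 2. The replication clamp gene Pcna differed by −0.50, mainly through TCDD array 2 at 8.14 against 9.11 to 9.20 elsewhere, and the helicase gene Mcm4 by −0.38. Of the 33, 10 were lower after TCDD within both numbers and 4 higher, against 20.2% and 22.6% of all genes. Another 15 were lower within number 1 and higher within number 2, the order of the 4 core histone probe sets, against 34.0% of all genes, and 3 the reverse, against 18.6%. The mean level of the 33 was 6.55 and 6.54 with TCDD and 6.65 and 6.49 with DMSO.

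The chaperones that carry histones to DNA differed in both directions. Of 22 measured genes, 2 had both TCDD arrays above and 6 had both below, against 12.9% and 12.0% of all genes, with a median difference of 0.015 that was −0.065 without TCDD replicate 1, and limma called 0. Npm1, the nucleolar chaperone nucleophosmin, differed by −0.935, but by −0.15 within number 1 and −1.72 within number 2. Anp32b, an acidic nuclear chaperone, differed by 0.32. For H3.3, Hira differed by −0.075, Daxx by 0.04 and Atrx by −0.46. Atrx, below the median level, read 5.66 and 5.62 with TCDD and 5.57 and 6.63 with DMSO, so the groups overlapped and its difference lay in DMSO array 2. For removal of H2A.Z, Anp32e differed by −0.055. These 4 were chosen after their values were seen.

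Genes of the complexes that exchange H2A.Z differed in both directions. Of 23 measured, 3 had both TCDD arrays above and 6 both below, against 12.9% and 12.0% of all genes. The median difference was −0.015, and limma called 0, with 2 at an unadjusted p under 0.05, against 261 of all 12393 genes. Ing3, a TIP60 complex subunit, differed by 0.72 with overlapping groups, at 8.47 and 7.18 with TCDD and 7.38 and 6.83 with DMSO. Mbtd1, another subunit of that complex, differed by 0.56, at 8.83 and 8.41 against 8.16 and 7.96. Actr6, a subunit of the SRCAP complex, was named after its values were seen; it differed by −0.495, at 7.59 and 7.46 against 7.79 and 8.25. Mbtd1 and Actr6 were the 2 genes under 0.05 before adjustment, and each had groups that did not overlap.

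Among 20 measured genes for histone mRNA synthesis and processing, 4 had both TCDD arrays above and 3 both below, against 12.9% and 12.0% of all genes. The median difference was 0.008, it ran from −0.045 without TCDD replicate 1 to 0.073 without TCDD replicate 2, and limma called 0. Cpsf2, a subunit of the cleavage complex, differed by −0.435 and Cstf1, a cleavage stimulation factor, by 0.405. Slbp, the protein that binds the histone stem loop, was named after its values were seen; it read 8.00 and 6.44 with TCDD and 7.62 and 7.54 with DMSO, the low value being TCDD array 2. Of 7 measured AHR target genes limma called 0, and the median difference was −0.045, with Cyp1a1, the usual readout of AHR activation, at −0.05 and Tiparp, an ADP-ribosyltransferase, at 0.775. Cyp1a1 read 6.13 and 6.25 with TCDD and 6.33 and 6.15 with DMSO, near the median level of 6.01. The values alone do not tell whether such a signal is weak or absent, and 2 of the 7 lay above that level. The Tiparp groups overlapped, at 10.21 and 8.18 with TCDD and 9.06 and 7.78 with DMSO, and the TCDD array 2 value lay below the DMSO mean of 8.42. Within the numbers Tiparp was higher after TCDD, by 1.15 and 0.40, beside steps from number 1 to number 2 of −2.03 and −1.28. It was the 1 gene of the 7 higher within both numbers, and 2 were lower within both, against 22.6% and 20.2% of all genes. The AHR target median was 0.362 over the 2 genes above the median level, 0.01 without TCDD replicate 1 and −0.11 without TCDD replicate 2.

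**Figure D5:**
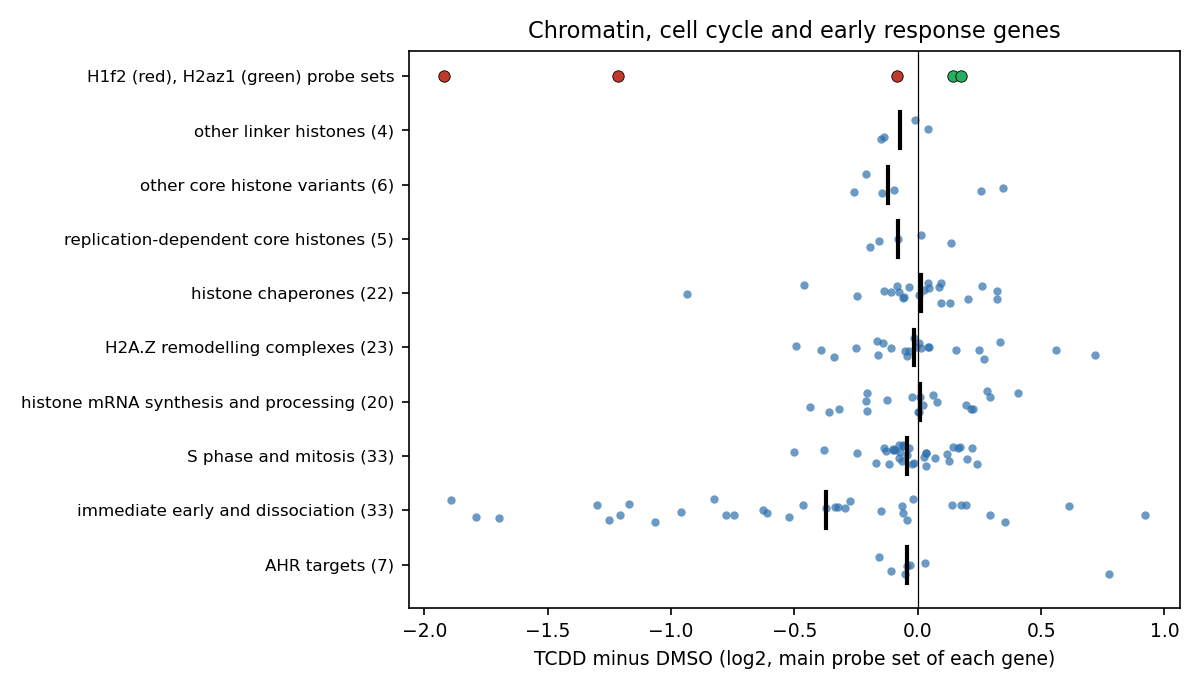
TCDD minus DMSO difference (log2, horizontal axis) for the H1f2 and H2az1 probe sets in the top row and for the main probe set of each gene in 9 lists below, with a black bar at each list's median and the number of genes in brackets. The main H1f2 probe set at −1.92 is lower than every list gene, the nearest being Hspa1a at −1.89, and of the list medians that of the early response genes at −0.37 is the lowest.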

How the data were processed

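Log2 expression values of 4 arrays were used as deposited. The authors made these log2 values with RMA, per the submitters' processing notes; its version and settings are not given in the sources used here, and the log2 scale was read from values between 3.09 and 14.62. RMA as usually run quantile normalises the arrays, and array medians lay between 5.97 and 6.03. RMA compresses differences at low signal, and precision is limited by the number of arrays. Of 22690 probe sets, 64 controls were left out. The platform annotation gave 20380 probe sets 1 symbol, 691 several and 1555 none, and symbols were brought up to date by Entrez identifier from RefSeq (GRCm38.p6).

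Differences are TCDD minus DMSO. Limma 3.58.1 in R 4.3.3 (lmFit, eBayes, no covariate, no filter) was fitted on all probe sets, with Benjamini-Hochberg adjustment and a threshold of 0.05. With 2 arrays a group the smallest two-sided exact permutation p is 0.3333, so none was run. Members and lists were chosen with earlier results of these data known. Named genes were the members, the 2 genes of each list with the largest difference among those above the median level of 6.01, the 3 closest profiles to a member spanning over 1 log2 unit, and those marked as chosen later. The lists cover 9 gene groups and 11 cell types. Alternatives were array centring, a repeat quantile step, low-level filters (25th percentile or median), a fitted variance trend, array weights, other choices of probe sets, a replicate block and each array left out.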

Additional observations from a re-analysis of the deposited data

How the results depend on the processing

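The count of probe sets past the limma threshold was 0 in all 14 alternatives, as was the count of list genes. The H1f2 difference of −1.92 moved by more than the within-group SD in 2 of its alternatives: to −1.073 for the mean of its 3 probe sets, and to −0.085 without probe sets ending in _x_at, _s_at or _a_at, which leaves 1438204_at alone. That last alternative gave no value for H2az1, and no alternative gave one for H1f0, H3f3a or H3f3b. Removing only those ending in _x_at or _s_at, added after seeing the data, left H1f2 at −1.92. With an array left out H1f2 ran from −2.575 to −1.265 and H2az1 from −0.09 to 0.38. With the replicate block the differences were −1.92 and 0.145 and 0 probe sets were called; deviations of arrays sharing a number correlated at 0.234 over probe sets, with only 2 pairs. The list medians turned sign in 0 to 5 of 14 alternatives, the early response list in 1 (range −0.855 to 0.04). An array left out leaves 1 in its group, assumed to vary like the other group.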
